A study of Oryctolagus cuniculus with 12 samples.

Results

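The genes described here are the nuclear-encoded genes of the mitochondrial respiratory chain in the basilar artery of the rabbit, which lies on the brain stem. They were chosen by symbol alone, as the NDUF, SDH, UQCR, CYC1, COX4 to COX8 and ATP5 genes, provided that 1 group or more had a probe well above background on each of its 3 arrays. The rule found 52 of the 7292 tested genes, and all 52 were well above background on all 12 arrays. They comprise 19 subunits of complex I, 6 assembly factors of complex I, 1 subunit of complex II, 6 of complex III, 9 of complex IV and 11 genes of complex V. Single-colour Agilent arrays were used, with 1 array for each of 12 samples in 4 groups of 3. The control samples were labelled normal and counted as day 0, and the other groups were collected on days 3, 5 and 7 of an experimental subarachnoid hemorrhage, that is, blood released between the membranes that cover the brain. The labels give no strain, age or method of producing the bleed, and do not say whether the samples of a group came from separate rabbits, so the spread behind each p-value is that of the samples measured and may be technical. The series asks which genes of the artery change over these days.

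The respiratory chain sits in the inner mitochondrial membrane. Complexes I and II take electrons from NADH and succinate, complex III passes them to cytochrome c, complex IV hands them to oxygen, and complex V, the ATP synthase, uses the resulting proton gradient to make ATP. Several complex IV subunits come in isoform pairs, of which one is typical of heart and skeletal muscle. Arterial smooth muscle uses this chain together with glycolysis to fuel contraction.

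Some central genes of the chain had no probe that could be named here and were not analysed: NDUFV1, SDHA, SDHB, UQCRFS1, CYC1, COX4I1, COX4I2, COX5A, COX7A2, COX8A and the subunits encoded by mitochondrial DNA. Complex II is therefore represented by SDHD, one of its membrane anchors. A further probe matched COX6A2 and a second gene and was left out. ATP5F1B, the catalytic beta subunit of ATP synthase and the marker of the group, was measured by 1 probe and lay far above background in every group, with mean log2 levels from 4.50 to 4.78. Here and throughout, a log2 level is the log2 signal of a probe relative to the 75th percentile of the signals of its array, and a log2 change is a difference of such levels.

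Each replicate number was 1 slide, and each slide held 1 array of every group in the same order of positions, so position on the slide and group cannot be told apart. The array of control replicate 2 differed in quality: 50.1% of its spots were well above background and 169 were outliers, where the other arrays had 58.2% to 64.0% and 1 to 16. The 3 samples per group limit the precision, and no spot was saturated. In whole artery, fewer cells of a type and less RNA per cell cannot be told apart.

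The probes behind the 6 genes whose values carry most of what follows are shown by the first 30 of their 60 bases, 5′ to 3′, because they define what was measured where the array names no genome build.
COX7A1: acatcctctaccgcctgaccatgaccctga
ATP5IF1: gcgactgcagaaagaaattgagcggcacaa
NDUFB4: gggaaggaaaattggatcggacatttaaca
UQCR10: ctaacagactctttaatttctgccgcatat
UQCRC1: aatgtcaggaagctgtctcgtgccgacctg
ATP5F1B: aggacatcattgccatcctgggtatggatg
Of these, the ATP5IF1 probe shares a run of at least 25 bases with 5 probes of a second annotated gene, LOC100339409, so the signal may combine both. In all, 5 of the 52 chosen probes share such a run with a probe of another or no gene (ATP5IF1, ATP5MC1, ATP5PB, COX6B1 and UQCRH).

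Against the controls, 1 of the 52 genes passed the test on day 3 and none on day 5 or day 7 (limma, Benjamini-Hochberg adjusted p below 0.05 over all 26434 tested probes). COX7A1, the heart and muscle isoform of complex IV subunit 7A, was the gene that passed, and it was lower. It was measured by 1 probe, so there was no other probe to compare. Of all 7292 genes, 4.81% were called higher and 2.02% lower on day 3, 1.89% and 0.219% on day 5, and 1.93% and 0.576% on day 7. At an unadjusted p below 0.05 there were 4 of the 52 genes on day 3, 0 on day 5 and 2 on day 7, against 21.7%, 14.8% and 19.4% of all genes. None passed between the days, where 1 gene had an unadjusted p below 0.05 for day 5 against day 3, 1 for day 7 against day 3 and 0 for day 7 against day 5. The shares of all genes called between days were 0% in both directions for day 5 against day 3 and for day 7 against day 5, and 0.0137% higher and 0.096% lower for day 7 against day 3.

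The arrays also bound the size of changes that could have been missed. The 95% interval of the log2 change lay within 2-fold in either direction for 43 of the 52 genes on day 3, 41 on day 5 and 38 on day 7. It lay within 1.5-fold for 16, 21 and 13 genes.

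These values come from the fit without a block, in which the spread between slides counts as error, and the chain genes shifted together by slide, as described further on. With the slide as a block the 95% interval lay within 2-fold for 46, 47 and 46 of the 52 genes and within 1.5-fold for 36, 38 and 22. In that fit 3 genes were called on day 3 (COX7A1 lower, ATP5IF1 and ATP5MC1 higher), 0 on day 5 and 1 on day 7 (NDUFB4, higher), against 8.96%, 2.51% and 3.84% of all genes in either direction. At an unadjusted p below 0.05 it gave 8 genes on day 3, 4 on day 5 and 20 on day 7, against 25.2%, 17.7% and 23.5% of all genes in either direction. Of these chain genes 7, 4 and 20 were higher. The shares of all genes by direction are not given for this fit. A change of 1.5-fold was thus not excluded for most of the genes without the block on any day, nor on day 7 with it.

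Most of the genes lay slightly above the controls. The median log2 change of the 52 genes was 0.16 on day 3, 0.07 on day 5 and 0.29 on day 7, with 45, 41 and 47 genes above 0. The medians of all tested genes were -0.01, 0.02 and 0.03, with 49.4%, 53.3% and 54.1% of them above 0. The 52 probes share arrays and scaling, so these are not independent points. The counts also rest on the chosen probes. Of the 35 genes with several tested probes, the signs of the probes agreed for 29 on day 3 and 31 on days 5 and 7. NDUFAF4 counted as above 0 on days 3 and 5 with 1 of its 5 probes above 0. ATP5PO counted so on day 5 with 1 of its 6. The size depended on how the arrays were brought to a common scale, and with quantile normalization the medians were 0.05, 0.00 and 0.11 and the counts above 0 were 29, 26 and 39. With normexp background correction the day 5 median was -0.16, with 12 genes above 0, while days 3 and 7 kept 0.18 and 0.22. The day 5 arrays then differed widely, with median deviations of -0.68, -0.04 and 0.26 on slides 1, 2 and 3. The slide 1 array thus stood far below the rest of its group. No direction can therefore be given for day 5. That of day 3 also depended on scaling and slide. With quantile normalization the median deviations from the control mean were -0.07, 0.02 and 0.11 on day 3 slides 1, 2 and 3.

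**Figure D1:**
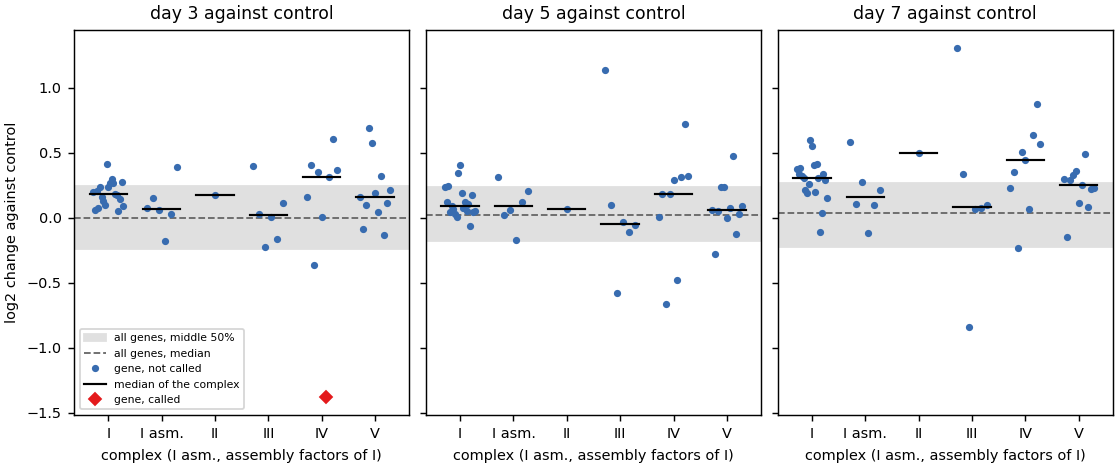
Log2 change against the control group on days 3, 5 and 7 (one panel each) for the 52 genes, grouped along the horizontal axis by complex. Points are genes, black bars the median of each complex, the red diamond the gene that passed the test, and the grey band and dashed line the interquartile range and the median of all tested genes. COX7A1 on day 3, at -1.38, lies apart from the other complex IV genes, and UQCR10 and UQCRC1 of complex III lie at opposite ends on day 7; medians of the 52 genes are above 0 with this scaling, but the day 5 median is below 0 with normexp.

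Complex I, the NADH dehydrogenase, is the largest group. By their chosen probes, all 19 subunits had a positive log2 change on day 3, from 0.05 to 0.41, with a median of 0.18. On day 5 the median was 0.09 and 18 were positive, and on day 7 the median was 0.31 with 18 positive, but 0 of 19 passed the test in any comparison and 0 had arrays clear of the controls. On days 5 and 7 the largest values belonged to NDUFB4 and NDUFB5, accessory subunits of the membrane arm.

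NDUFB4 had log2 levels of 4.20, 4.59 and 5.12 in controls, 4.86, 4.93 and 5.38 on day 3, 4.55, 4.83 and 5.57 on day 5, and 4.93, 5.07 and 5.71 on day 7, in the order of slides 1, 2 and 3. The groups overlapped, and slide 3 was the highest in each of them. The log2 change on day 7 was 0.60 (SE 0.32, n = 3 per group, limma adjusted p = 0.36). Within slides the day 7 differences were 0.73, 0.48 and 0.58, and with the slide as a block the adjusted p was 0.042. Over all alternatives it ranged from 0.042 to 0.72. Its 10 tested probes gave day 7 changes from 0.48 to 0.78.

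NDUFB5 levels were 3.49, 3.53 and 4.18 in controls and 3.97, 4.12 and 4.75 on day 7, again with the highest value on slide 3. Levels on day 3 were 3.91, 3.88 and 4.12 and on day 5 were 3.84, 3.88 and 4.68. The day 7 change of 0.55 (SE 0.28, n = 3 per group) had a limma adjusted p of 0.33.

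NDUFS1, the largest iron-sulfur subunit, had levels of 2.37, 1.96 and 2.77 in controls, 2.41, 2.45 and 2.79 on day 3, 2.18, 2.23 and 2.84 on day 5, and 2.53, 2.74 and 2.73 on day 7. All groups overlapped, with changes of 0.18, 0.05 and 0.30. Its 2 tested probes disagreed in sign on days 3 and 5. They gave -0.05 and 0.18 on day 3, -0.11 and 0.05 on day 5, and 0.05 and 0.30 on day 7.

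The 6 assembly factors of complex I, proteins that help build the complex without staying in it, had median changes of 0.07, 0.09 and 0.16. None passed the test. NDUFAF7, a methyltransferase needed for complex I assembly, was the gene whose 3 arrays were above all controls on every day. Its levels were -0.64, -0.60 and -0.55 in controls, -0.38, -0.29 and 0.06 on day 3, -0.43, -0.51 and -0.23 on day 5, and -0.37, -0.41 and -0.37 on day 7. The changes were small, at 0.39, 0.20 and 0.21, with limma adjusted p-values of 0.15, 0.59 and 0.48 (n = 3 per group).

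Few of the 52 genes had arrays clear of the controls. On day 3, 4 genes were entirely above the controls (ATP5IF1, ATP5MC1, COX6B1 and NDUFAF7) and 1 entirely below (COX7A1), against 13.7% and 11.4% of all genes. On day 5 the counts were 1 and 0, against 10.1% and 6.82%. On day 7 they were 3 (COX6B1, NDUFAF2 and NDUFAF7) and 0, against 12.2% and 11.0%. These genes are named for this pattern after their values were seen.

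SDHD, the membrane anchor of complex II, had levels of 3.52, 3.52 and 4.20 in controls and 3.94, 4.22 and 4.58 on day 7. On day 3 they were 3.75, 3.73 and 4.29 and on day 5 they were 3.58, 3.71 and 4.14. Slide 3 was the highest in every group and the groups overlapped. The day 7 change was 0.50 (SE 0.26, n = 3 per group, limma adjusted p = 0.34), and its 7 probes gave 0.14 to 0.53.

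UQCR10, a small subunit of complex III, which passes electrons to cytochrome c, had the widest spread of the 52 genes (limma SE 0.59). It had levels of 2.89, 4.52 and 5.79 in controls, 5.59, 4.90 and 3.90 on day 3, 5.41, 5.58 and 5.63 on day 5, and 5.69, 5.77 and 5.66 on day 7. The controls and day 3 each spanned over a 3-fold range, in opposite order of slides, while the 6 arrays of days 5 and 7 lay close together. The day 7 change was 1.31 (SE 0.59, n = 3 per group), with a limma adjusted p of 0.28, and within slides it was 2.80, 1.26 and -0.13. Without control replicate 3 it was 2.0 and passed, with an adjusted p of 0.043, so this 1 array decided the call. All 5 probes of UQCR10 moved together, with day 7 changes from 1.14 to 1.31.

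UQCRC1, a core protein facing the matrix, varied almost as widely, from a single probe designed on an expressed sequence tag. Its levels were 0.88, 1.36 and 0.15 in controls, 0.13, 0.08 and 1.5 on day 3, -0.17, 0.73 and 0.08 on day 5, and 0.53, -0.09 and -0.56 on day 7. The day 7 change was -0.84 (SE 0.44, n = 3 per group, limma adjusted p = 0.35) and the groups overlapped. On control replicate 3 UQCR10 had its highest and UQCRC1 its lowest control level, and on day 3 replicate 3 the order was the other way round. By their chosen probes, the other 4 subunits, UQCRB, UQCRC2, UQCRH and UQCRQ, lay between -0.17 and 0.11 on day 3 and between 0.07 and 0.34 on day 7. The 2 tested probes of UQCRC2 disagreed, with changes of -0.65 and 0.01 on day 3 and of -0.70 and 0.07 on day 7. This was the widest range between probes of any of the 52 genes.

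**Figure D2:**
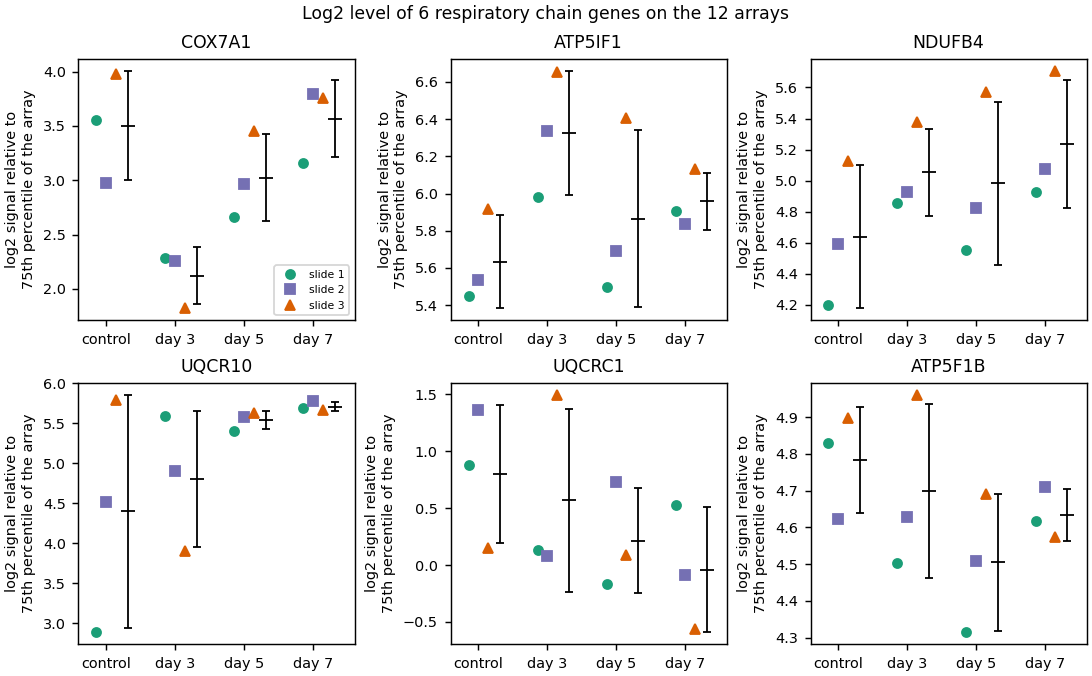
Log2 level of 6 genes (vertical axis, scaled to each array's 75th percentile) on the 12 arrays by group (horizontal axis). Symbols mark slides 1, 2 and 3, and black bars the mean and SD of the 3 arrays of a group; vertical axes differ between panels and do not start at 0. The 3 COX7A1 values of day 3 lie below all controls, UQCR10 spreads widely in controls and day 3, and slide 3 is the highest for NDUFB4 in every group.

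COX7A1 was the gene of complex IV, cytochrome c oxidase, that fell. Its levels were 3.56, 2.97 and 3.98 in controls and 2.28, 2.26 and 1.82 on day 3, so that all 3 day 3 arrays lay below the lowest control. On day 5 they were 2.66, 2.97 and 3.45, and on day 7 they were 3.15, 3.79 and 3.76, both overlapping the controls. The group means were 3.5 ± 0.5, 2.12 ± 0.26, 3.02 ± 0.40 and 3.57 ± 0.36 (SD, n = 3 each). The day 3 change was -1.38 (SE 0.29, n = 3 per group, limma adjusted p = 0.018), or 0.384 times the control level, with differences within slides of -1.28, -0.71 and -2.16. With the slide as a block the adjusted p was 0.024.

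On day 7 the mean of COX7A1 was close to that of the controls, with a change of 0.07 (95% interval -0.57 to 0.70), and on day 5 it was -0.48 (SE 0.29, limma adjusted p = 0.51, n = 3 per group). Every day 5 and day 7 array lay above every day 3 array. The difference of day 7 from day 3 was 1.45 and that of day 5 from day 3 was 0.90, but neither passed across all probes, with limma adjusted p-values of 0.11 and 0.49 (n = 3 per group). The fall on day 3 kept its direction in all 24 alternatives, from -1.65 to -0.99, and passed in 21 of them, with adjusted p-values from 0.0091 to 0.097. Several of these alternatives could not move the estimate, so the tally overstates how far it was tested. They include leaving out a day 5 or day 7 array, the slide as a block, and averaging over probes, as COX7A1 has 1 probe. The fall did not pass without control replicate 1 (-1.35, adjusted p = 0.057), without day 3 replicate 3 (-1.23, adjusted p = 0.079) or without slide 3 (-0.99, adjusted p = 0.097).

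Markers of muscle cells had lower summed levels on days 3, 5 and 7 than in controls. The summed level of the 7 measured of 8 smooth muscle markers, as linear signal relative to the 75th percentile, was 392 to 551 in controls. It was 291 to 353 on day 3, 283 to 358 on day 5, and between 254 and 354 on day 7. Of these markers 0 passed the test on any day (limma), with median log2 changes of -0.58, -0.54 and -0.74, and DES, the desmin gene, went the other way on day 3 (0.29, SE 0.25). The 4 measured of 8 skeletal muscle markers summed to between 189 and 249.9 in controls, 110 and 159 on day 3, 110 and 182 on day 5, and 136 and 177 on day 7, and 1 of them, the fast troponin C gene TNNC2, fell on day 3 (-0.98, SE 0.18, n = 3 per group, limma adjusted p = 0.0098). Another of them, the fast troponin I gene TNNI2, had a day 3 change of 0.93 (SE 0.36, n = 3 per group, limma adjusted p = 0.16). The summed levels of both lists were below all controls on every array of days 3, 5 and 7. COX7A1 was below all controls on day 3 and overlapped them on days 5 and 7. All measured markers of both lists were well above background on at least 1 array of every group, and their part in the COX7A1 result was not tested.

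The markers of fibroblasts and leptomeninges, the membranes around the brain and its arteries, had a median log2 change of 0.82 on day 3. Of the 4 measured, 3 had a positive change, but the summed linear level of the list was lower, through PTGDS alone. For the 4 measured of 6 the control arrays held between 1015 and 2111, those of day 3 between 623 and 722, those of day 5 between 928 and 940.1, and those of day 7 between 1026 and 1332. The day 3 and day 5 arrays thus lay below all controls and those of day 7 overlapped them, whereas COX7A1 overlapped on days 5 and 7. The members moved in both directions on day 3: PTGDS, a prostaglandin D synthase abundant in leptomeninges, fell (-1.59, SE 0.24, n = 3 per group, limma adjusted p = 0.0029), while the matrix genes COL1A1 (1.56) and LUM (1.13) rose and DCN (0.50, limma adjusted p = 0.17) did not pass. In the lists for pericytes, endothelium, neutrophils, lymphocytes, erythroid cells and neural cells, 17 of 33 markers were measured, with 1 of 7 for neural cells. Of these markers PDGFRB and CD79B were called on day 3, both higher. CD79B was above background on no control array, so its rise is measured from the floor. The part of these lists in the COX7A1 result was not tested.

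Markers of macrophages and of dividing cells rose after the hemorrhage. All 3 measured of 8 macrophage markers were called higher on each day, and their summed level was at most 6.71 in controls and at least 12.8 on day 3, 15.2 on day 5 and 14.4 on day 7. Of 5 measured markers of dividing cells, 5 rose on day 3 and 4 on days 5 and 7, and 2 of them (BUB1B and NCAPG) were on no control array above background. Their part in the levels of the 52 genes was not tested.

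The muscle isoform of another complex IV subunit, COX6A2, did not pass. It had levels of 2.97, 2.36 and 2.87 in controls, 2.46, 2.15 and 2.5 on day 3, 1.04, 2.33 and 2.84 on day 5, and 2.23, 2.57 and 2.69 on day 7. The low value was day 5 replicate 1, and all groups overlapped. The changes were -0.36, -0.66 and -0.23 with an SE of 0.37. Its ubiquitous partner COX6A1 lay at 6.41, 6.31 and 6.94 in controls, 6.87, 6.83 and 7.18 on day 3, 6.54, 6.62 and 7.04 on day 5, and 6.82, 6.92 and 6.97 on day 7, and its changes were 0.41, 0.18 and 0.35 with an SE of 0.20. The difference between the partners' changes was not tested.

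COX6B1, the ubiquitous subunit that faces the intermembrane space, had levels of 6.67, 6.56 and 7.0 in controls, 7.04, 7.04 and 7.22 on day 3, 6.68, 6.79 and 7.32 on day 5, and 7.17, 7.28 and 7.28 on day 7. Its arrays were entirely above the controls on days 3 and 7 but not on day 5. The day 7 change was 0.50 (SE 0.18, n = 3 per group, limma adjusted p = 0.19), and its 4 probes gave 0.41 to 0.50. COX5B, a zinc-binding subunit that the array describes only by a mouse clone name, had levels of 5.82, 5.65 and 6.22 in controls, 5.86, 6.06 and 6.24 on day 3, 5.61, 5.80 and 6.27 on day 5, and 5.94, 6.10 and 6.33 on day 7, with changes of 0.16, 0.00 and 0.23.

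COX7B2, a paralog of COX7B, had the largest positive changes of complex IV by its chosen probe. Its 2 tested probes gave 0.24 and 0.60 on day 3, 0.55 and 0.72 on day 5, and 0.44 and 0.87 on day 7. By the lower values it lay below COX6A1 on day 3 and below COX7B on day 7. Its levels were -1.45, -1.17 and -0.70 in controls, -0.93, -0.13 and -0.46 on day 3, -1.36, -0.39 and 0.58 on day 5, and -0.86, -0.22 and 0.37 on day 7. Slide 1 was the lowest in every group and the groups overlapped. The day 7 change was 0.87 (SE 0.45, n = 3 per group, limma adjusted p = 0.34). NDUFA4, once counted with complex I and now placed in complex IV, had levels of 5.06, 4.97 and 5.65 in controls, 5.37, 5.46 and 5.94 on day 3, 5.02, 5.23 and 6.39 on day 5, and 5.44, 5.56 and 6.37 on day 7. Its changes were 0.37, 0.32 and 0.56 with an SE of 0.37.

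In complex V, ATP5F1B had levels of 4.83, 4.62 and 4.90 in controls, 4.50, 4.63 and 4.96 on day 3, 4.31, 4.51 and 4.69 on day 5, and 4.62, 4.71 and 4.57 on day 7. The groups overlapped on every day. It was one of the genes with a change below 0 on each of the 3 days (-0.09, -0.28 and -0.15, SE 0.16), with limma adjusted p-values of 0.82, 0.49 and 0.67 (n = 3 per group). The 95% interval on day 5, -0.64 to 0.08, excludes a halving. Its partner in the catalytic head, ATP5F1A, the alpha subunit, had levels of 5.75, 5.63 and 6.16 in controls, 5.90, 5.96 and 6.16 on day 3, 5.81, 5.88 and 6.03 on day 5, and 6.02, 6.18 and 6.23 on day 7. Its changes were 0.16, 0.06 and 0.29, also without passing.

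ATP5IF1 encodes the inhibitor protein that stops the ATP synthase from running backwards and splitting ATP. Its levels were 5.45, 5.53 and 5.92 in controls and 5.98, 6.34 and 6.65 on day 3, so that every day 3 array lay above every control. On day 5 they were 5.5, 5.69 and 6.41 and on day 7 they were 5.91, 5.83 and 6.13, overlapping the controls. The day 3 change was 0.69 (SE 0.25, n = 3 per group, limma adjusted p = 0.13), or 1.61 times the control level, and it did not pass. Within slides it was 0.54, 0.80 and 0.73, and with the slide as a block the adjusted p was 0.027. Over all alternatives the adjusted p ranged from 0.027 to 0.38. The 4 probes gave 0.69 to 0.76.

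ATP5MC1, which encodes the c subunit of the rotating ring, is added here because the block changed its call. Its levels were 4.86, 5.14 and 5.49 in controls, 5.56, 5.61 and 6.03 on day 3, 5.34, 5.23 and 5.62 on day 5, and 5.43, 5.60 and 5.52 on day 7. The day 3 arrays lay just above the highest control. The day 3 change was 0.57 (SE 0.20, n = 3 per group, limma adjusted p = 0.11), the differences within slides were 0.70, 0.47 and 0.55, and with the slide as a block the adjusted p was 0.044.

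ATP5MJ, a small proteolipid of the membrane part, had levels of 4.95, 5.26 and 5.71 in controls, 5.63, 5.33 and 5.92 on day 3, 5.64, 5.41 and 6.30 on day 5, and 5.40, 5.87 and 6.13 on day 7. The groups overlapped, with changes of 0.32, 0.47 and 0.49 and an SE of 0.28. Over the 11 complex V genes the median changes were 0.16, 0.06 and 0.25.

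**Figure D3:**
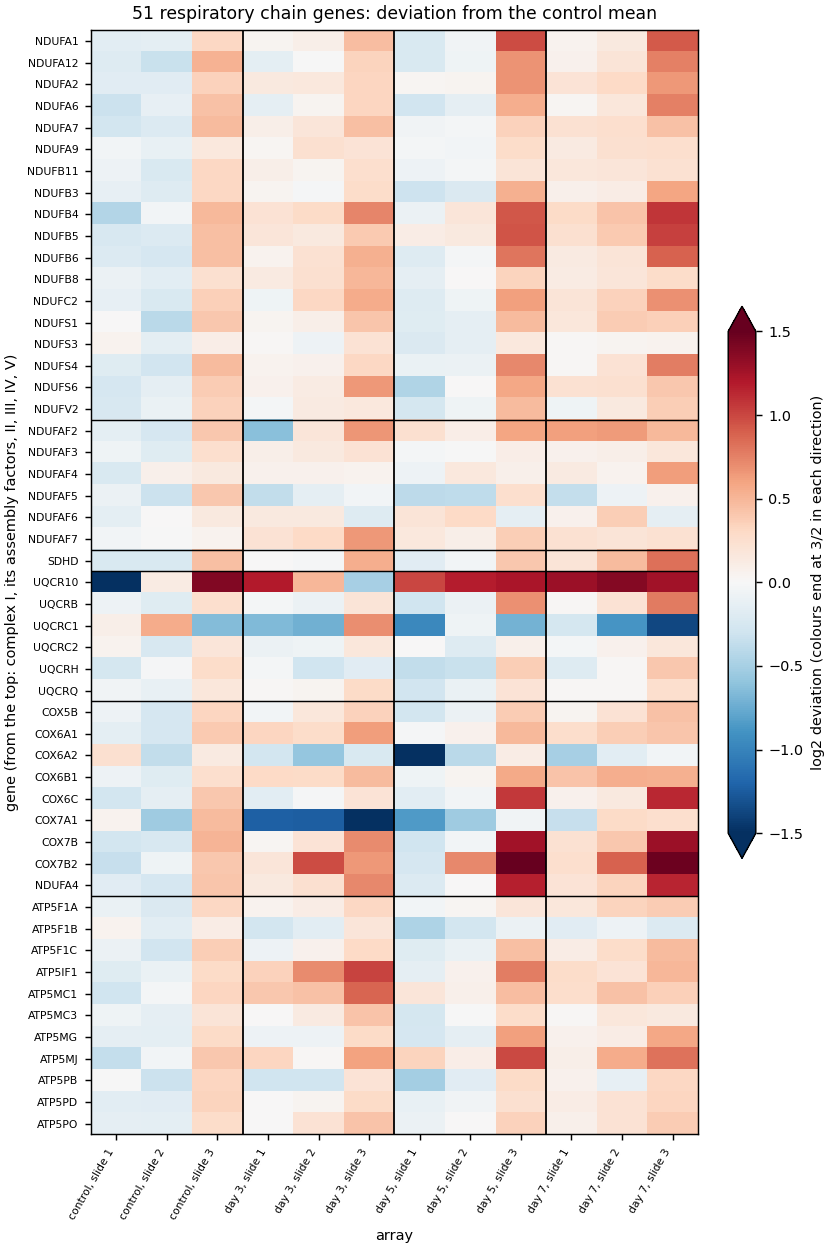
Deviation of 51 of the 52 genes (one line each, ordered by complex) from its mean in the 3 controls, on the log2 scale, for the 12 arrays in columns; red is above and blue below the control mean, and colours end at the same deviation in each direction. The slide 3 column is the reddest of each group for most genes, COX7A1 is blue on all 3 day 3 arrays, and UQCR10 and UQCRC1 do not follow the others.

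The respiratory chain genes varied together by slide. Slide 3 held the highest of the 3 arrays for 49 of the 52 genes in controls, 45 on day 3, 49 on day 5 and 42 on day 7. Among all genes the shares were 44.1%, 40.1%, 41.1% and 33.5%. For 36 of the 52 genes (69.2%) slide 3 was the highest in all 4 groups, against 8.98% of the 7263 genes with a value on every array. The labels do not say what the arrays of a slide have in common beyond a replicate number.

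The median deviation of the 52 genes from their control means was -0.14, -0.17 and 0.33 on control slides 1, 2 and 3. It was 0.03, 0.11 and 0.32 on day 3, -0.18, -0.04 and 0.45 on day 5, and 0.10, 0.21 and 0.43 on day 7. In each group slide 3 was the highest, and control slide 3 stood above the slide 1 and slide 2 arrays of all 3 days. Over all genes the same medians lay between -0.11 and 0.07.

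Averaged over the 4 groups, slide 3 exceeded the mean of slides 1 and 2 by a median of 0.42 over the 52 genes, with 50 of them above 0, and by 0.00 over all genes. The exceptions were NDUFAF6 (-0.21) and UQCRC1 (-0.14). The largest excesses were in complex IV, with 0.94 for COX7B, 0.83 for NDUFA4, 0.77 for COX6C and 0.76 for COX7B2. COX7B rose from 4.97 and 5.02 on control slides 1 and 2 to 5.77 on slide 3, and from 4.96 and 5.21 to 6.51 within day 5. With quantile normalization the median excess was 0.20, with 47 of 52 above 0, and with normexp it was 0.40 with 50 above 0.

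Across the 12 arrays most of the genes followed one another. The correlation of a gene with the median of the other 51 had a median of 0.89 and exceeded 0.8 for 36 genes, a description over arrays that share scaling and slides. It was lowest for NDUFAF6 (-0.33), UQCRC1 (-0.33), COX7A1 (0.24) and UQCR10 (0.33). With quantile normalization the median was 0.60, and 18 genes exceeded 0.8.

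**Figure D4:**
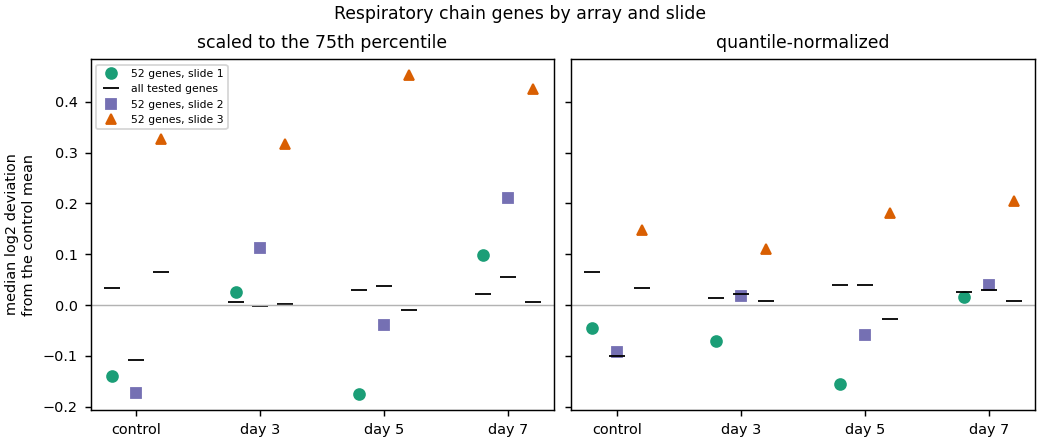
Median log2 deviation from the control mean (vertical axis) of the 52 genes on each array by group (horizontal axis), after scaling to the 75th percentile (left) and after quantile normalization (right). Coloured symbols mark slides 1, 2 and 3, and short black lines all tested genes; slide 3 is the highest of each group in both panels, and its lead is smaller on the right.

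Within slides, the day 7 difference of the 52 genes from the controls had a median of 0.23 on slide 1, 0.38 on slide 2 and 0.10 on slide 3, with 44, 49 and 35 genes above 0. All genes had 0.01, 0.16 and -0.07. On day 3 the medians were 0.17, 0.30 and 0.02, and on day 5 they were -0.01, 0.15 and 0.10. Slide 2 holds control replicate 2, the array with the most spots below background, and there the median of all genes was also the highest on each day.

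Between the days, the 52 genes had a median log2 change of -0.08 for day 5 against day 3, 0.14 for day 7 against day 3 and 0.17 for day 7 against day 5, beside 0.02, 0.03 and 0.00 for all genes. For day 7 against day 5, 49 of 52 genes were above 0, with within-slide medians of 0.29, 0.25 and 0.02. With 1 gene entirely above and 1 entirely below, the arrays of these days overlapped for the other 50, against 3.22% and 4.98% of all genes without overlap. For day 5 against day 3 the counts were 1 and 0, against 7.47% and 7.45% of all genes, and for day 7 against day 3 they were 2 and 1, against 10.4% and 13.0%.

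Other genes of mitochondrial energy metabolism gave 1 call. Of all 7292 genes, 4.81% were called higher and 2.02% lower on day 3, 1.89% and 0.219% on day 5, and 1.93% and 0.576% on day 7. Counts of 0 in lists this short therefore say little about these pathways. Of 39 assembly factors of the complexes that follow other naming, 25 were measured, and 0 were called higher or lower on any of the 3 days, with medians of 0.15, 0.05 and 0.09. Counts of 0 in both directions on every day also held for 6 measured of 9 mobile carrier genes and 16 of 18 genes of the citrate cycle and pyruvate dehydrogenase. The measured carrier genes serve coenzyme Q synthesis and electron transfer flavoprotein, and cytochrome c was not among them. The same was true of 9 of 15 biogenesis regulators, 6 of 9 carriers, channels and uncouplers, 4 of 6 fusion and fission genes and 4 of 6 genes of peroxide and superoxide defence. Of 38 measured mitochondrial ribosomal protein genes, 1 was called, MRPL17, a large-subunit protein, which rose on day 3 by 1.79 (SE 0.37, n = 3 per group, limma adjusted p = 0.017). The median change of the ribosomal list was 0.15 on day 3, 0.09 on day 5 and 0.14 on day 7.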

How the data were processed

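Total RNA of 12 rabbit basilar artery samples was labelled with Cy3, per the labels. The authors deposited the output of Agilent Feature Extraction 9.5.1.1, per the submitters' processing notes. The deposited processed signal is an intensity after background subtraction and detrending inside each array, with no scaling across arrays, per the file headers. Flags (kind other) were deposited as 0 or 1 for each spot. The authors' value table, an intensity too, has the same median on every array, 26.97 (correlation of its log2 values with the processed signals at least 0.9944), and served as an alternative.

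Outlier spots were set to missing, log2 processed signals were taken relative to each array's 75th percentile, and spots of a probe were averaged. Of 43623 probes, the 26434 that were well above background throughout 1 group or more were fitted with limma 3.58.1 (R 4.3.3) over 12 arrays and 4 groups, without a block, and p-values were Benjamini-Hochberg adjusted over all of them, two-sided. A gene is its tested probe with the highest mean. The script was tested on simulated data with independent noise on each array, and so not for shifts by slide. Accessions, identifiers and descriptions of the array were matched to RefSeq symbols (assembly mOryCun1.1, used for naming): 22113 probes matched 1 gene, 264 matched several and 21246 were unnamed.

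Genes described with values on every array were those called, the 2 with the largest mean change of days in each complex, core subunits, isoform partners and ATP5IF1, and 1 gene of the rule is not reported here. Members and lists were chosen with earlier results of these data known. Alternatives were other scalings, background correction, filters, the slide as a block, array weights, other probe rules and leaving out each array. Replicate numbers, which are the slides, did not meet the rule set for pairing, that deviations correlate over 0.1 in every same-number pair: 10 of 18 did, against 2 of 36 different-number pairs (medians 0.11 and -0.041). Block values are given beside the results they change.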

Additional observations from a re-analysis of the deposited data

How the results depend on the processing

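Counts of called genes were tested under 12 other settings and without each array, and only the following moved by over 1.5 times. With the slide as a block (the replicate numbers, whose deviations correlated from -0.15 to 0.39 within 18 same-number pairs and from -0.40 to 0.26 in 36 others), 3 genes were called on day 3 and 1 on day 7. With array weights 2 were called on day 3 and 1 for day 7 against day 3. Without slide 3, chosen after seeing the data, 0 were called on day 3. Leaving out 1 array gave 0 to 2 calls on day 3, 0 to 1 on day 7 and 0 to 0 elsewhere; the count was 0 without control replicate 1 or day 3 replicate 3 and 2 without control replicate 3 (COX7A1 and ATP5MC1). The median change moved beyond the spread between slides with normexp to -0.16 (day 5), -0.33 (day 5 against day 3), 0.066 (day 7 against day 3) and 0.37 (day 7 against day 5). Under normexp the day 5 array of slide 1 stood apart, with a median deviation of -0.68 beside -0.04 and 0.26 on slides 2 and 3. Quantile normalization and the authors' table gave 0.11 and 0.11 for day 7, and 0.096 and 0.094 for day 7 against day 3, which was 0.097 without slide 3. Without 1 array the medians had ranges of 0.056 to 0.30 (day 3), -0.10 to 0.23 (day 5), 0.16 to 0.46 (day 7), -0.25 to 0.055 (day 5 against day 3), 0.0028 to 0.21 (day 7 against day 3) and 0.037 to 0.39 (day 7 against day 5). Control replicate 3 gave the highest value on days 3 (0.30), 5 (0.23) and 7 (0.46), and day 5 replicate 3 the lowest on day 5 (-0.10). Causes were not tested. Of 1368 values of named genes under alternatives, 1310 kept direction and side of the threshold, 49 changed sign without being called, and 9 changed their call (3 lost for COX7A1, 6 gained). Some alternatives could not move a given change, such as leaving out an array of a group not compared.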

Other observations

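Groups of 3 arrays were too small for the outlier check, and no gene of the chain had arrays entirely above the controls on one day and entirely below on another. Array weights estimated from all probes were lowest on the 4 arrays of slide 3 (control 0.38, day 3 0.53, day 5 0.33, day 7 0.65) and on control replicate 2 (0.46), and were 1.19 to 4.50 on the remaining 7 arrays. The arrays on which the respiratory chain genes were highest were thus among those given the least weight. With these weights the median change of the 52 genes was 0.16 on day 3, 0.03 on day 5 and 0.28 on day 7, and COX7A1 was called on day 3 together with ATP5MC1.

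UQCR10 and UQCRC1 of complex III ran against each other on some arrays, as values with no test. Control replicate 3 had the highest control level of UQCR10 (5.79) and the lowest of UQCRC1 (0.15). On day 3 replicate 3 UQCR10 was at its lowest for that day (3.90) and UQCRC1 at its highest of all arrays (1.5). Control replicate 1 had the lowest UQCR10 level (2.89), but UQCRC1 (0.88) was close to its control mean (0.80) there. On day 7 replicate 3 both were at their lowest of that day (5.66 and -0.56), so the opposition did not hold there.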
